A study of Mus musculus with 4 samples.

Results

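The genes described here are the ligands, receptors and antagonists of the Wnt pathway, together with the proteins that carry its signal inside the cell. They were measured by mRNA sequencing of astrocytes isolated from the mouse cerebral cortex at postnatal day 5. Members are the protein-coding genes, by symbol, of the Wnt, Fzd, Dkk, Sfrp, Rspo and Lgr families, and Lrp5, Lrp6, Wif1, Frzb, Axin1, Axin2, Ctnnb1, Lef1, Tcf7, Tcf7l1, Tcf7l2, Rnf43 and Znrf3. Of the 23475 genes in the deposited tables, 48 matched. A further 9 annotated genes that match the rule (Wnt2, Wnt3a, Wnt6, Wnt8a, Wnt9b, Wnt10b, Wnt11, Rspo4 and Dkk4) had no row and are not analysed here.

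The libraries form 2 groups of 2, titled WT and KO. The series' design text names PD1fl/fl mice, which carry a floxed PD-1 gene, and PD1cKO-Cx3 mice, in which PD-1 is conditionally deleted, and the titles were read in that order. The labels do not spell out which promoter drives the deletion, the sex of the animals, or whether each library is 1 animal or a pool. The comparison asks which transcripts of the astrocyte preparation differ when PD-1, an inhibitory immune receptor, is deleted.

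Wnt proteins are secreted lipid-modified ligands that bind Frizzled receptors, together with the co-receptors LRP5 and LRP6 in the beta-catenin branch. Ligand binding disables a destruction complex built on Axin, beta-catenin accumulates, and it joins LEF/TCF factors to switch on target genes, among them Axin2 and Lef1 themselves. SFRP proteins, FRZB and WIF1 bind Wnt ligands outside the cell, DKK1 and DKK2 block LRP co-receptors, and R-spondins with their LGR receptors hold back RNF43 and ZNRF3, the ligases that remove Frizzled from the surface. In the developing brain, WNT7A and WNT7B from neural cells act on endothelial cells to build vessels and their barrier, and SFRP1 and SFRP2 are made by progenitors of the cortical wall.

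Gene counts per library ranged from 14224519 to 16961160. Values below are CPM, the counts of a gene in each 1000000 counts of library size, with library sizes adjusted by TMM normalization. They scale with transcript length, so genes are compared with each other only as CPM per kilobase of merged exons. Ddx3y, on the Y chromosome, had 2472 counts in KO replicate 2 and 0 in the other 3 libraries, and Xist had 0 in KO replicate 2 and at least 6732 in the others, so the KO libraries differ in sex-linked transcripts. Pdcd1, the deleted gene, had 0 counts in both WT libraries and 20 in KO replicate 2, so it cannot check the labels. Astrocyte markers were abundant in every library (14 genes, summed level 10561 to 12340 CPM). All 16 microglia and macrophage markers were higher in both KO libraries (21.2% of all genes tested were). Their summed level was 4795 and 4021 CPM in KO replicates 1 and 2 against 894 and 1307 CPM in WT. Pf4 among them (5.37 and 0.857 CPM in KO, 0.118 and 0.0694 CPM in WT) passed the low-count filter of the test only through KO. Of 14 endothelial markers 13 were higher in both KO libraries too (summed level 847 and 441 CPM against 289 and 114 CPM). In such bulk samples fewer cells of a type and less RNA per cell cannot be told apart.

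Most Wnt pathway transcripts of this preparation came from a few members. Dkk3 (116 CPM per kilobase, mean of 4 libraries), Ctnnb1 (63.9 CPM per kilobase) and Sfrp1 (45.2 CPM per kilobase) stood above the rest. They were followed by Wnt7b (13.5 CPM per kilobase), Znrf3 (13.3 CPM per kilobase), Sfrp2 (9.83 CPM per kilobase) and Wnt7a (9.51 CPM per kilobase). At the other end Wnt16, Rspo3, Dkk1, Wnt1 and Rspo1 were too low to be tested, which left 43 members with a test.

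**Figure D1:**
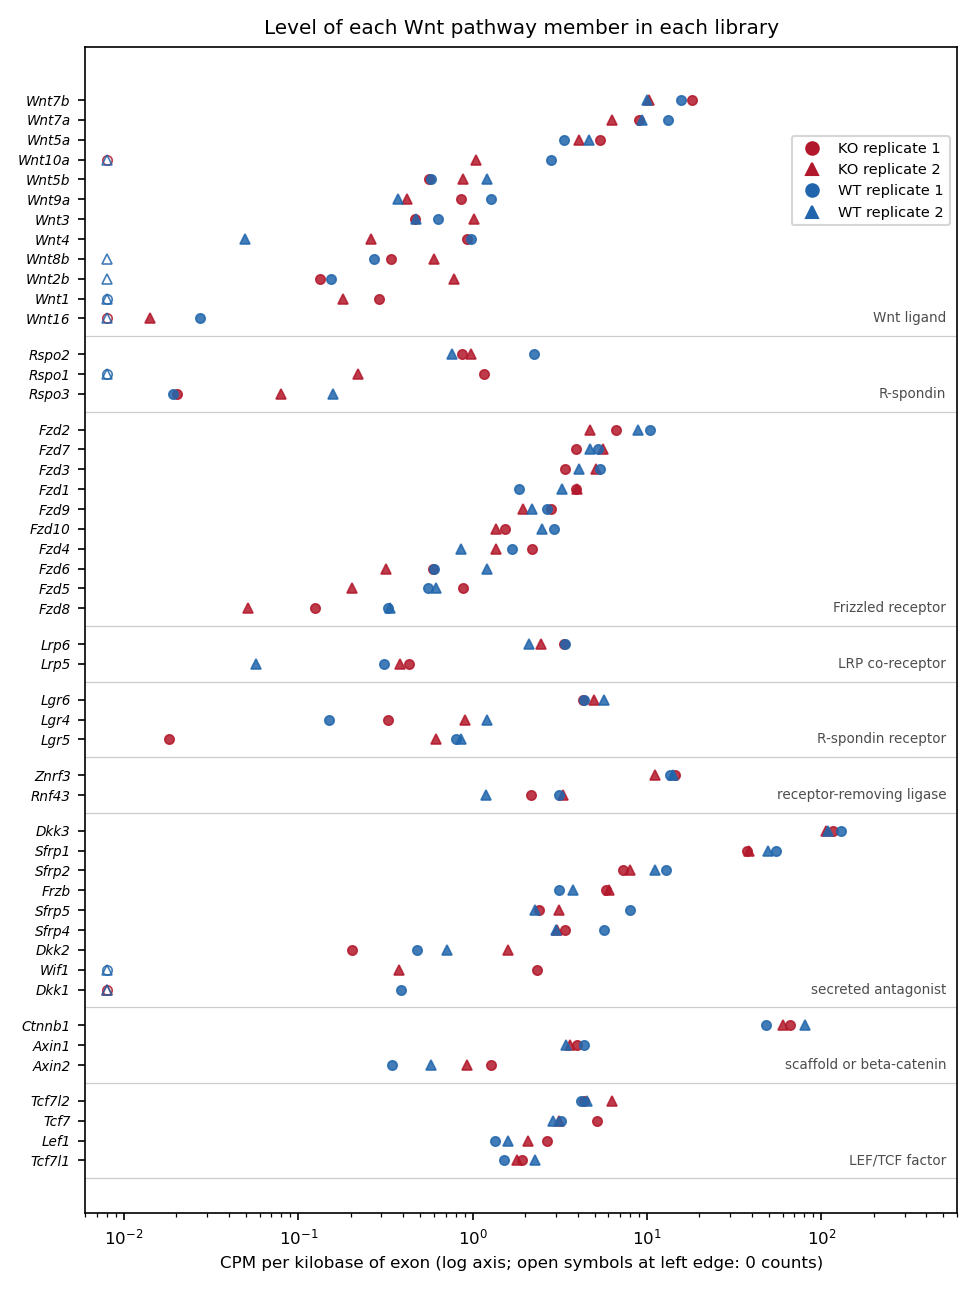
Level of each of the 48 members in each of the 4 libraries, as CPM per kilobase of merged exons on a log axis, grouped by role. Red is KO and blue is WT, circles are replicate 1 and triangles replicate 2, and open symbols at the left edge mark 0 counts. Dkk3, Ctnnb1 and Sfrp1 lie farthest right, and low members such as Wnt10a, Lgr5 and Wif1 spread widely between libraries of 1 group.

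None of the 43 tested members passed the test over all genes (quasi-likelihood test of edgeR, adjusted p by Benjamini-Hochberg from 0.40 to 1.00). Over all 17696 genes tested, 0.0170% were called higher (3 genes) and 0% lower. Before adjustment, 2 members had a p under 0.05 and were higher in KO (4.65%, against 5.88% of all genes tested), and 3 were lower (6.98%, against 2.41%). Without WT replicate 2 these were 5 and 7 members, without WT replicate 1 they were 5 and 2, without KO replicate 1 they were 0 and 1, and without KO replicate 2 they were 1 and 1. DESeq2 called 1 member higher, Wif1, and 0 lower (it called 1.78% of all genes tested higher and 0.356% lower), and limma-voom called 0. Wif1 is also 1 of the 2 members higher before adjustment. It passed the low-count filter only through the KO libraries, so its direction was fixed by that filter. The median log2 fold change of the tested members was -0.04, beside 0.00 over all genes tested, and 18 of 43 lay above 0. This side of 0 rested on WT replicate 1, without which the median was 0.23, with 30 of 45 members above 0. In 15 of 43 members the KO and WT libraries did not overlap (34.9%), a share close to the 39.6% of all genes tested. KO lay above WT in 7 of them (21.2% of all genes tested) and below in 8 (18.5%). Both shares lie near those of all genes, and what follows describes the members one by one.

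**Figure D2:**
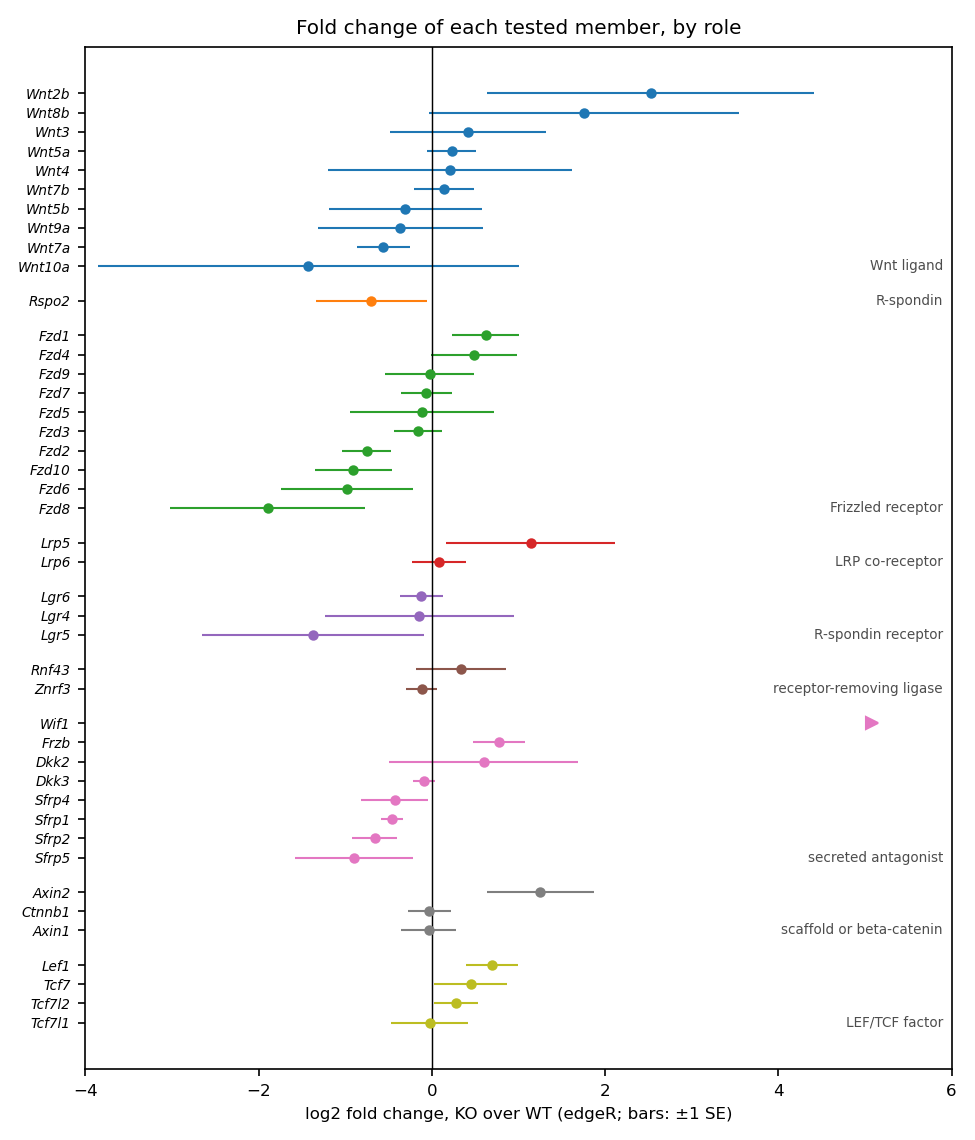
Fold change of each of the 43 tested members between KO and WT, on a log2 axis, grouped by role and with bars of 1 SE. The triangle for Wif1, drawn without a bar, marks a lower bound, since both WT libraries had 0 counts. Points lie on both sides of 0 in most roles, and the longest bars drawn belong to the low members Wnt10a (SE 2.43), Wnt2b (SE 1.88) and Wnt8b (SE 1.79).

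Among the ligands, Wnt7b, Wnt7a and Wnt5a were the main transcripts and none of the 10 tested ligands passed. Wnt7a (chromosome 6, 91363981 to 91411363, minus strand), which signals to brain endothelium, was measured at 28.7 CPM and 20.1 CPM in KO replicates 1 and 2 and at 42.1 CPM and 29.9 CPM in WT. The KO libraries lay below both WT libraries, with KO replicate 1 close to WT replicate 2, and the log2 fold change was -0.56 ± 0.30 (SE, adjusted p = 0.73). Leaving out 1 library gave values from -0.84 (without KO replicate 1) to -0.29 (without WT replicate 1). Its close relative Wnt7b (chromosome 15, 85535439 to 85581821) did not follow it, with 88.3 CPM and 50.4 CPM in KO against 77.2 CPM and 48.7 CPM in WT. In Wnt7b the replicate 1 libraries of both groups were high and the replicate 2 libraries low, so the groups overlapped (log2 fold change 0.14 ± 0.35 SE, adjusted p = 0.97). Wnt5a, the main ligand of the branch that does not use beta-catenin, had 41.8 CPM and 31.8 CPM in KO and 26.3 CPM and 36.6 CPM in WT, again with overlap (0.23 ± 0.28 SE, adjusted p = 0.93). Summed over all 12 ligands, the level was 171 CPM and 119 CPM in KO and 166 CPM and 121 CPM in WT, the same range in both groups.

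The other ligands were scarce, with means under 3 CPM. Wnt3 ranged from 1.44 CPM to 3.12 CPM over the 4 libraries and Wnt9a from 1.25 CPM to 4.26 CPM, and Wnt5b reached at most 3.19 CPM, with groups that overlapped in each. Wnt8b, a ligand of the medial pallium, had 1.19 CPM and 2.08 CPM in KO against 0.947 CPM and 0 CPM in WT, and this was the ligand whose KO libraries both lay above WT among those tested (adjusted p = 0.90). Wnt2b, which marks the cortical hem, had 0.562 CPM and 3.30 CPM in KO and 0.651 CPM and 0 CPM in WT, and the high value came from KO replicate 2 alone. Wnt1 had 11 and 7 counts in the KO libraries and 0 in both WT libraries. Against the 3 counts that a 0 allows over the WT group (0.0962 CPM), that is at least 5.76-fold higher, for counting error only, in a gene too low to test. Wnt4 (0.208 CPM to 4.08 CPM) and Wnt10a (0 CPM to 6.92 CPM) varied more within each group than between groups. Wnt16 had at most 2 counts in a library, and its 2 libraries without a listed value can hold at most 4.

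R-spondins, which strengthen Wnt signals, were low in all libraries. Rspo2 had 4.43 CPM and 5.02 CPM in KO and 11.4 CPM and 3.89 CPM in WT, so its lower KO mean rested on WT replicate 1 (log2 fold change -0.70 ± 0.64 SE, adjusted p = 0.88). Without WT replicate 1 it was 0.28. Rspo1 had 36 and 7 counts in KO and 0 in both WT libraries, at least 13.7-fold higher over the group and at least 4.44-fold for KO replicate 2 alone, and was not tested. Rspo3 had at most 7 counts in a library. Of the R-spondin receptors, Lgr6 was the main one, at 29.5 CPM and 33.9 CPM in KO and 29.9 CPM and 39.0 CPM in WT (log2 fold change -0.12 ± 0.25 SE, adjusted p = 0.965). Lgr5 had 0.187 CPM and 6.36 CPM in KO against 8.28 CPM and 8.75 CPM in WT: KO replicate 1, with 3 counts, stood far below the other 3 libraries, and the log2 fold change of -1.37 ± 1.28 (SE, adjusted p = 0.88) was -0.42 without it and -5.45 without KO replicate 2. Limma-voom gave -2.82 and the replicate block -2.57. Lgr4 ranged from 0.888 CPM to 7.15 CPM, and both extremes were WT libraries.

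Both ligases that R-spondins restrain were expressed. Znrf3 had 114 CPM and 87.4 CPM in KO and 107 CPM and 111 CPM in WT, with the groups overlapping (log2 fold change -0.12 ± 0.18 SE, adjusted p = 0.95). Rnf43 had 14.2 CPM and 21.7 CPM in KO and 20.6 CPM and 7.78 CPM in WT, where WT replicate 2 was the low library (0.34 ± 0.52 SE, adjusted p = 0.95). Leaving out WT replicate 1 gave 1.21, and leaving out WT replicate 2 gave -0.20.

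All 10 Frizzled receptors were detected and tested, 8 of them with a log2 fold change below 0, and none passed. Without WT replicate 1 5 of the 10 lay below 0, and 6 did without KO replicate 1 or without KO replicate 2. Fzd2 (chromosome 11, 102604396 to 102608058) had 24.5 CPM and 17.3 CPM in KO and 38.1 CPM and 32.4 CPM in WT. Both KO libraries were lower than both WT libraries, with group means of 20.9 ± 5.05 CPM in KO and 35.2 ± 3.98 CPM in WT (SD, n = 2 per group). On the log2 scale the difference was -0.75 ± 0.28 (SE; unadjusted p = 0.036, adjusted p = 0.54). Fzd10 was likewise separated, at 4.99 CPM and 4.41 CPM in KO and 9.53 CPM and 8.12 CPM in WT (-0.91 ± 0.44 SE, adjusted p = 0.68). Fzd6 and Fzd8 were lower in both KO libraries too, with 2.87 CPM and 1.53 CPM against 2.90 CPM and 5.83 CPM for Fzd6, where the highest KO and lowest WT values nearly meet, and 0.749 CPM and 0.306 CPM against 1.95 CPM and 2.01 CPM for Fzd8. Fzd8 rests on 12 and 5 counts in KO and 33 and 29 in WT (adjusted p = 0.76).

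Fzd1 was the Frizzled receptor whose KO libraries both lay above WT, at 16.3 CPM and 16.6 CPM against 7.75 CPM and 13.7 CPM. Its KO libraries were nearly equal while the WT libraries were not, and the log2 fold change was 0.62 ± 0.39 (SE, adjusted p = 0.78), or 0.27 without WT replicate 1 and 1.09 without WT replicate 2. Fzd4, the receptor for Norrin on vessels, had 14.8 CPM and 9.18 CPM in KO and 11.4 CPM and 5.76 CPM in WT, and overlapped (0.48 ± 0.49 SE, adjusted p = 0.90). In both groups replicate 1 was the higher library, as in the endothelial markers (847 CPM and 441 CPM in KO, 289 CPM and 114 CPM in WT), whose part in the value was not tested. Fzd3 (43.2 CPM to 69.2 CPM), Fzd7 (17.7 CPM to 25.5 CPM), Fzd9 (4.47 CPM to 6.49 CPM) and Fzd5 (1.41 CPM to 6.05 CPM) overlapped between groups, with log2 fold changes of -0.16, -0.06, -0.03 and -0.12. Of the co-receptors, Lrp6 had 45.7 CPM and 33.8 CPM in KO and 46.4 CPM and 28.8 CPM in WT (0.08 ± 0.31 SE, adjusted p = 0.99). Lrp5 was lower throughout, at 4.18 CPM and 3.73 CPM in KO and 3.02 CPM and 0.555 CPM in WT, with WT replicate 2 apart at 8 counts (adjusted p = 0.86).

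Of the 8 tested secreted antagonists, 2 were higher and 2 lower in KO with an unadjusted p under 0.05. The higher ones include Wif1, which passed the low-count filter only through the KO libraries. Together 4 had such a p (8.29% of all genes tested did). The number ran from 0 without KO replicate 1, 1 without KO replicate 2 and 2 without WT replicate 1 to 6 without WT replicate 2, and it was 2 without a filter, with DESeq2 or with the replicate block. Sfrp1 (chromosome 8, 23411502 to 23449632), the second most abundant antagonist per kilobase, had 164 CPM and 169 CPM in KO and 241 CPM and 216 CPM in WT. The KO libraries were close to each other and lay below both WT libraries, and the group means were 167 ± 3.17 CPM in KO and 229 ± 17.8 CPM in WT (SD, n = 2 per group). The log2 fold change was -0.46 ± 0.13 (SE; unadjusted p = 0.013, adjusted p = 0.45). Sfrp2 (chromosome 3, 83766321 to 83774316) had 15.7 CPM and 17.2 CPM in KO and 27.8 CPM and 24.0 CPM in WT, also without overlap (-0.66 ± 0.26 SE, unadjusted p = 0.046, adjusted p = 0.58). Without any 1 of the libraries the log2 fold change stayed between -0.53 and -0.37 for Sfrp1 and between -0.76 and -0.55 for Sfrp2. The 12 radial glia and progenitor markers had summed levels of 6033 CPM and 5568 CPM in KO and 6883 CPM and 6346 CPM in WT. Of the 11 of them tested, 5 were lower in both KO libraries (18.5% of all genes tested were) and 0 higher in both (21.2%). The part of these cells in the Sfrp1, Sfrp2 and Fzd2 values was not tested.

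Frzb (also called sFRP3; chromosome 2, 80411970 to 80447625) lay on the other side from Sfrp1 and Sfrp2. It had 18.8 CPM and 19.5 CPM in KO and 10.2 CPM and 12.2 CPM in WT, with no overlap and a log2 fold change of 0.78 ± 0.30 (SE, unadjusted p = 0.043, adjusted p = 0.57). It ran from 0.65 to 0.92 when 1 library was left out. Sfrp4 had 14.1 CPM and 12.8 CPM in KO and 23.6 CPM and 12.6 CPM in WT, and Sfrp5 had 4.56 CPM and 5.94 CPM in KO and 15.3 CPM and 4.30 CPM in WT. In both, WT replicate 1 was the one high library, and without it the log2 fold changes of -0.43 and -0.90 became 0.09 and 0.29. Rspo2, Sfrp4 and Sfrp5 had the same high library, WT replicate 1.

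Wif1 (chromosome 10, 121033960 to 121100650) had the largest fitted fold change of all tested members, on few counts. It had 91 and 15 counts in KO replicates 1 and 2, or 5.68 CPM and 0.918 CPM, and 0 counts in both WT libraries. Against the 3 counts that a 0 allows over the WT group, the pooled KO level was at least 33.9-fold higher, and that of KO replicate 2 alone at least 9.50-fold. The gene passed the low-count filter only through the KO libraries, so its direction was fixed by that filter. It did not pass in edgeR (unadjusted p = 0.0091, adjusted p = 0.40), passed in DESeq2 (adjusted p = 0.014), and the adjusted p ran from 0.014 to 1.00 over the alternatives. The summed level of the 12 meningeal fibroblast markers was highest in KO replicate 1, as Wif1 was. It was 899 CPM there against 594 CPM in KO replicate 2 and 645 CPM and 638 CPM in WT. Of that sum Nnat, also made by neurons, held 477 CPM to 537 CPM in every library. Among the 12 markers Aldh1a2, a retinoic acid enzyme of the meninges, had 7.43 CPM and 1.22 CPM in KO and 0 CPM in both WT libraries. Like Wif1, it passed the filter only through KO. So did Foxc1 of the same list, with 3.99 CPM and 1.04 CPM in KO against 0 CPM and 0.139 CPM in WT. Col1a1 had 71.5 CPM and 16.4 CPM against 6.81 CPM and 7.98 CPM. Islr, Crabp2, Nnat, Dcn, Col1a2 and Igf2 overlapped between groups. Islr had 61.8 CPM and 41.5 CPM in KO against 47.2 CPM and 61.9 CPM in WT. Crabp2 had 0.998 CPM and 0.612 CPM in KO against 0 CPM and 1.04 CPM in WT. Neither of them was highest in KO replicate 1, nor was Nnat. Dcn had 47.5 CPM and 4.83 CPM in KO against 1.12 CPM and 12.3 CPM in WT. Col1a2 had 69.8 CPM and 18.0 CPM against 27.1 CPM and 16.5 CPM, and Igf2 14.7 CPM and 2.57 CPM against 3.02 CPM and 3.89 CPM. Of the 12 tested fibroblast markers 6 were higher in both KO libraries (21.2% of all genes tested were) and 0 lower in both (18.5%). These 6 include Aldh1a2 and Foxc1, whose direction was fixed by the low-count filter. The part of meningeal fibroblasts in the Wif1 and Rspo1 values was not tested.

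The DKK family was dominated by Dkk3, a divergent member whose action on Wnt signals is unsettled. Dkk3 had 393 CPM and 359 CPM in KO and 434 CPM and 366 CPM in WT, and overlapped (log2 fold change -0.09 ± 0.13 SE, adjusted p = 0.94). Dkk2 ranged from 0.749 CPM to 5.94 CPM, and both extremes were KO libraries. Dkk1, the classical LRP blocker, had 16 counts in WT replicate 1 and 0 in both KO libraries, was not listed in WT replicate 2, where it can have at most 4, and was not tested.

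**Figure D3:**
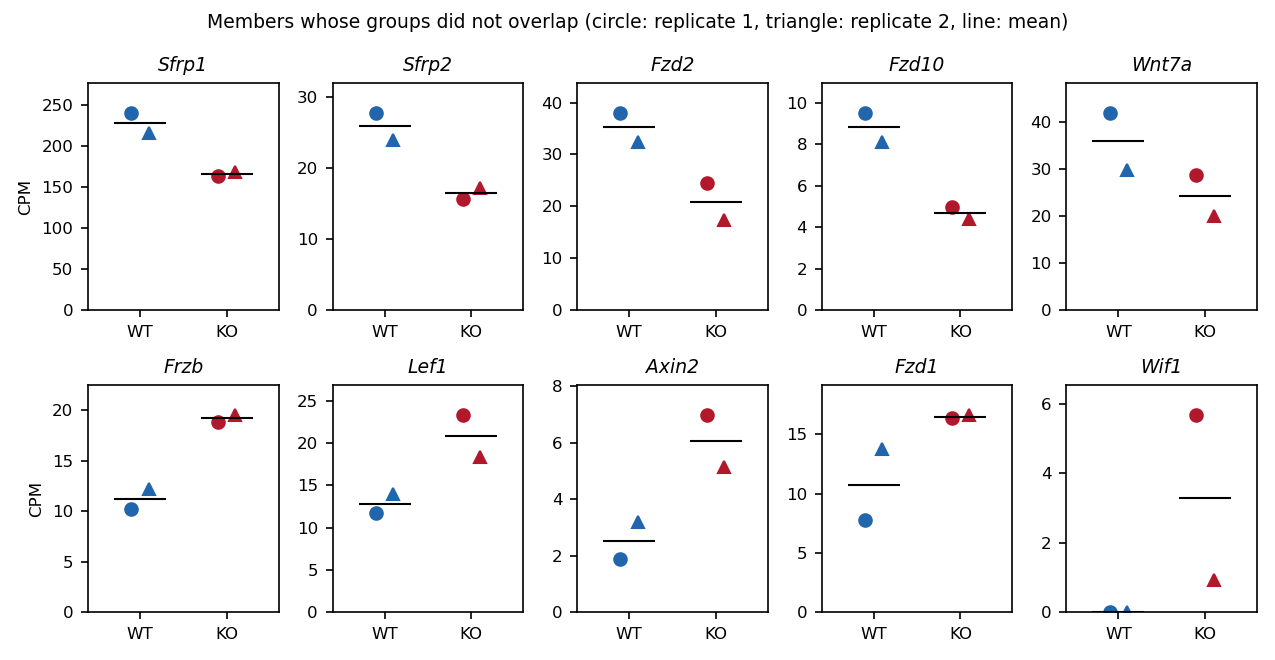
CPM of 10 of the 15 tested members whose groups did not overlap, with 1 panel a gene, each vertical axis starting at 0, and a line at the group mean. Circles are replicate 1 and triangles replicate 2. Sfrp1, Sfrp2, Fzd2, Fzd10 and Wnt7a are lower in both KO libraries (red), and Frzb, Lef1, Axin2, Fzd1 and Wif1 higher, none of them past the edgeR threshold.

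Inside the cell, beta-catenin and Axin1 overlapped between the groups, while Lef1 and Axin2, textbook feedback targets of beta-catenin, had higher values in both KO libraries without passing the test. Ctnnb1, which encodes beta-catenin, had 345 CPM and 311 CPM in KO and 250 CPM and 421 CPM in WT, where the WT libraries enclosed both KO libraries (log2 fold change -0.03 ± 0.25 SE, adjusted p = 0.99). Axin1, the constitutive scaffold, ranged from 13.1 CPM to 16.7 CPM (-0.04 ± 0.31 SE, adjusted p = 0.99). Axin2 (chromosome 11, 108920349 to 108950783) had 6.99 CPM and 5.14 CPM in KO and 1.89 CPM and 3.19 CPM in WT. These levels come from 112 and 84 counts in KO and 32 and 46 in WT, with no overlap, and the log2 fold change was 1.25 ± 0.61 (SE, unadjusted p = 0.089, adjusted p = 0.68). It fell outside the rule for genes given with a test, and was singled out after its values were seen.

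Lef1 (chromosome 3, 131110471 to 131224356), a DNA-binding partner of beta-catenin, had 23.3 CPM and 18.4 CPM in KO and 11.8 CPM and 13.96 CPM in WT. The groups did not overlap, with group means of 20.8 ± 3.52 CPM in KO and 12.9 ± 1.54 CPM in WT (SD, n = 2 per group), and the log2 fold change was 0.70 ± 0.30 (SE; unadjusted p = 0.061, adjusted p = 0.63). Leaving out 1 library gave values from 0.52 to 0.86 for Lef1 and from 0.93 to 1.68 for Axin2. Tcf7 had 13.5 CPM and 8.26 CPM in KO and 8.40 CPM and 7.57 CPM in WT, and its higher KO mean came from KO replicate 1 (0.45 ± 0.42 SE, adjusted p = 0.89). Tcf7l2 had 38.1 CPM and 55.4 CPM in KO and 36.9 CPM and 40.0 CPM in WT, here with KO replicate 2 as the high library (0.28 ± 0.25 SE, adjusted p = 0.88). Tcf7l2 is also made by maturing oligodendrocytes, whose myelin markers had summed levels of 758 CPM and 965 CPM in KO and 619 CPM and 415 CPM in WT. Of the 8 of these markers tested 5 were higher in both KO libraries (21.2% of all genes tested were) and 1 lower in both (18.5%). Their median log2 fold change was 0.84, and Mobp was at 0 in 3 of the 4 libraries. The part of these cells in the Tcf7l2 value was not tested. Tcf7l1, mostly a repressor, ranged from 5.92 CPM to 8.96 CPM, both in WT (-0.03 ± 0.45 SE, adjusted p = 1.00). Endothelial cells of the brain also use Lef1 and Axin2 in their Wnt response, and the endothelial markers (13 of 14 higher in both KO libraries, median log2 fold change 1.75) had higher values in the same libraries. Cldn5, the tight-junction gene of that list, had 273 CPM and 136 CPM in KO and 78.2 CPM and 24.4 CPM in WT. The part of endothelial cells in the Lef1 and Axin2 values was not tested. In KO, Axin2, Lef1 and the endothelial markers (summed level 847 CPM and 441 CPM) were all higher in replicate 1. In WT the endothelial markers were again higher in replicate 1 (289 CPM and 114 CPM), and Axin2 and Lef1 were higher in replicate 2.

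Promoter sequences of Axin2, Lef1 and Dkk1 are shown because all 3 are known feedback genes of the pathway, to which LEF/TCF factors bind through the core letters CTTTG followed by a pair of A or T. Each window covers 250 bases before to 50 bases after a transcript start, from RefSeq on GRCm38.p6, in the direction of the gene, with any such match on either strand in capitals. The Axin2 window is chr11:108920099-108920398 (plus strand). The most upstream Lef1 start is in chr3:131110047-131110346 and an internal start, which gives a shorter transcript, in chr3:131156044-131156343 (both plus strand). The Dkk1 window is chr19:30549447-30549746 (minus strand).
Axin2: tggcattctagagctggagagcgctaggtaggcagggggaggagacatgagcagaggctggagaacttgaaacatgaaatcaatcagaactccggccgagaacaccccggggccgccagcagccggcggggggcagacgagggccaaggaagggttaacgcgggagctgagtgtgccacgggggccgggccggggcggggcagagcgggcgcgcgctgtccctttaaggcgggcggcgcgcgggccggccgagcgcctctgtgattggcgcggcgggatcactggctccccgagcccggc
Lef1 upstream: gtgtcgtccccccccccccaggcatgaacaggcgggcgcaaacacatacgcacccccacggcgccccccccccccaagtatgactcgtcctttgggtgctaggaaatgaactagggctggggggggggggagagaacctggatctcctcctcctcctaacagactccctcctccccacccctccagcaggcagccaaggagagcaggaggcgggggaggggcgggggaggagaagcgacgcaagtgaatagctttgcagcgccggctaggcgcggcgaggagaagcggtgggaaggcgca
Lef1 internal: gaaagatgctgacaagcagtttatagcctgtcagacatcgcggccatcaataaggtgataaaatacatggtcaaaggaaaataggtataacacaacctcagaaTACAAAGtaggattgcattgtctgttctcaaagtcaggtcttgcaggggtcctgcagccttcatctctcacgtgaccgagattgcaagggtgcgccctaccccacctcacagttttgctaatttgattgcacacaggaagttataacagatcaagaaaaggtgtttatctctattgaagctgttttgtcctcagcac
Dkk1: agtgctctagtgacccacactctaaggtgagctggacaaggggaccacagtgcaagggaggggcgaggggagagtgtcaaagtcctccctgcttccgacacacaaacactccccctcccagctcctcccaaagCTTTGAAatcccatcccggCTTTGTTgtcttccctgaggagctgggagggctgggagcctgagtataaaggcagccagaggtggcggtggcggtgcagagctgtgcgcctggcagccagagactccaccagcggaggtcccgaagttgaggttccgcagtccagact
The Axin2 and upstream Lef1 windows held 0 matches, the internal Lef1 window 1 and the Dkk1 window 2. The 4 Lef1 windows in the table held 1 match in all, and the internal one is shown because it holds it. The Dkk1 matches end 110 and 91 bases before the start. Such matches are common: 16.9% of all 32851 promoter windows of this length held at least 1, and so did 6 of the 40 windows (15%) found for 31 of the 48 members. Matches are letters in a window and not binding sites, and the deposited counts sum over all starts of a gene, so the Lef1 value cannot be assigned to either window.

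Other genes of the pathway were read from 8 lists of 84 genes that are not members, of which 79 were tested. None passed over all genes tested (edgeR, lowest adjusted p = 0.46), 7 had an unadjusted p under 0.05 (8.86%, against 8.29% of all genes tested), and 22 lay higher and 14 lower in KO without overlap. Together those are 45.6% of the 79, beside 39.6% of all genes tested. Ror1, Sostdc1 and Foxq1, among the higher ones, passed the low-count filter only through the KO libraries, which fixed their direction. The median log2 fold change of the 79 was 0.09. Of the 2 genes of Wnt secretion, the ligand carrier Wls had 94.3 CPM and 89.5 CPM in KO and 49.8 CPM and 75.4 CPM in WT (log2 fold change 0.56, adjusted p = 0.63), and the acyltransferase Porcn had 0.05. Among the 10 other co-receptors and receptors 0 passed, and the most abundant, Tspan12 and Ptk7, had 0.08 and 0.24. In the destruction complex list of 14 tested genes 0 passed, with the kinase Csnk1a1 at -0.09 and Apc at -0.13.

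The most abundant members of the 9-gene polarity list, Celsr2 and Daam1, had log2 fold changes of 0.02 and 0.21. In that list 4 genes were lower in both KO libraries (18.5% of all genes tested were) and 2 higher (21.2%). The 4 lower ones, named after their values were seen, were Celsr1 (-0.90), Vangl2 (-0.40), Prickle2 (-0.36) and Celsr3 (-0.25), and the 2 higher ones Prickle1 (0.89) and Daam1. The 8 tested genes among the other antagonists had a median of 0.38, with Igfbp4 at 0.18 and Draxin, an axon guidance protein that binds LRP6, at -0.40. Of the 12 nuclear partners 0 passed, with Cby1 at -0.26 and Tle3 at 0.14. The 11 tested common targets had a median of -0.06, with Tnfrsf19 at -0.24 and Id2 at -0.08, 4 of them above 0. Of these targets 1 was higher in both KO libraries (21.2% of all genes tested were) and 3 lower (18.5%). Named after their values were seen, the higher one was Nkd1 (0.39), and the lower ones Tnfrsf19, Zbtb16 (-0.79) and Sp5 (-0.55). The 14 genes that Wnt signals regulate in brain endothelium had a median of 0.58 with 13 above 0, and 0 passed. Its most abundant members, the transporters Slco1c1 and Slc2a1, had 0.06 and 0.59, beside endothelial markers with a median of 1.75.

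**Figure D4:**
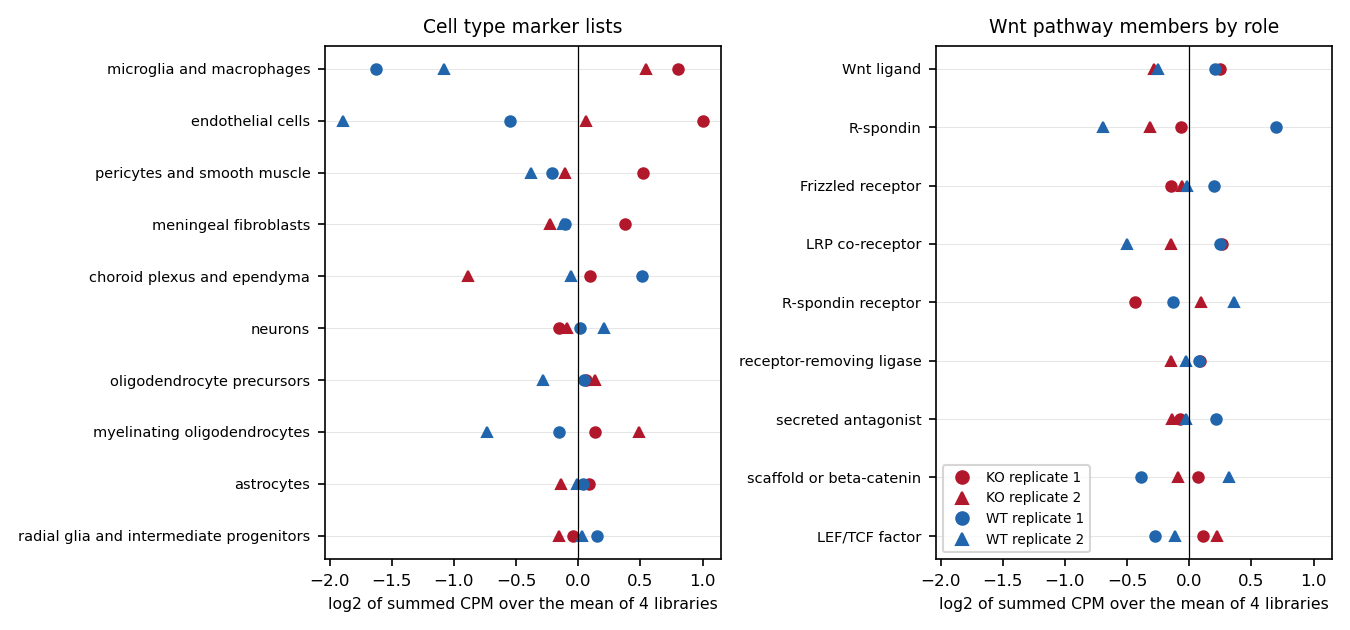
Summed CPM of each cell type marker list (left) and of the members of each role (right) in each library, as log2 of the value over the mean of the 4 libraries. Red is KO and blue is WT, circles are replicate 1 and triangles replicate 2. Both KO libraries lie above both WT libraries for microglia, endothelial, pericyte, oligodendrocyte precursor and myelinating oligodendrocyte markers, and below them for neurons and radial glia. Of the 9 roles the LEF/TCF factors alone have both KO libraries above both WT libraries (82.5 CPM and 89.1 CPM against 63.0 CPM and 70.5 CPM), and the Frizzled receptors (138 CPM and 146 CPM against 174 CPM and 151 CPM) and the secreted antagonists (617 CPM and 590 CPM against 755 CPM and 638 CPM) have both below. Of all single genes tested, 21.2% lay above and 18.5% below in this way, which is not a background for sums over several genes. Sums weigh members with a high CPM most, and the members with the highest mean CPM in these roles, Tcf7l2, Fzd3 and Dkk3, overlapped between groups.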

How the data were processed

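Messenger RNA of 4 libraries (2 WT, 2 KO) was measured. The authors deposited 4 tables, each with whole-number counts per gene for 1 KO and 1 WT library, per the file headers. Bowtie2 2.2.3, TopHat2 2.0.12 and HTSeq 0.6.0 are named, without roles, in the submitters' processing notes. Those notes name mm9, but 90.6% of gene positions (41 of 48 members) equal GENCODE M21 on GRCm38, the build given here. Whether counting used strand is not stated in these sources. Members sharing exon bases with an opposite-strand gene of at least 10 counts (Ctnnb1, Fzd5, Wnt5a, Wnt7b) are uncertain. Tables were joined by gene, and counts agreed between tables. A count listed nowhere was set to 0 and can be at most 4. The 8 normalized columns were not used.

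Groups were compared with edgeR 4.0.16 in R 4.3.3 (TMM, quasi-likelihood, filterByExpr with a minimum count of 10, Benjamini-Hochberg over all genes tested, threshold 0.05, 2 residual degrees of freedom). SE is the absolute log2 fold change over the square root of F. Exon lengths are from GENCODE M21. The scripts were tested on simulated data. Alternatives used DESeq2 1.42.0, limma-voom (limma 3.58.1), RLE or library-total scaling, other filters, a replicate block, unlisted counts at 4 and leaving out each library. Members, lists and tests were chosen with earlier results of these data known. A log2 fold change, SE and adjusted p were given for members with a mean of at least 5 CPM or an unadjusted p under 0.05, and for a few others chosen after their values were seen. From each pathway list the members past the threshold were named, otherwise the 2 with the highest mean CPM, called the most abundant there. Replicates differed by more than counting noise (chi-square per gene 21.7 between KO and 32.8 between WT libraries). No source says that they are separate animals. The KO libraries differed in Xist (6778 and 0 counts) and Ddx3y (0 and 2472 counts), so they are not the same animal or pool. Their spread can include sex and animal differences. The p-values measure the spread of replicates, which between the WT libraries may be technical. Limits from counts of 0 (3 counts) cover counting error only.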

Additional observations from a re-analysis of the deposited data

How the results depend on the processing

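Counts of genes called were the results that moved most. Over all genes edgeR called 3 higher and 0 lower. Without a filter it called 52 and 4, with a mean of at least 1 CPM 5 and 0, DESeq2 315 and 63, and limma-voom 25 and 3. Without 1 library it called 0 to 41 higher and 0 to 1 lower (0 higher without KO replicate 2, 1 without WT replicate 1, 6 without KO replicate 1 and 41 without WT replicate 2). Of the members only Wif1 was called, by DESeq2 (1 higher), and with any 1 library left out 0 members were called. The members' median log2 fold change ran from -0.11 to 0.23 without 1 library, the latter without WT replicate 1. The replicate block, with numbers that the data do not pair (correlation 0.0321 of same-numbered deviations), called 4 higher genes over all and 0 members, and moved the median to -0.03.

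Of 240 values of members under alternatives that keep all libraries, 235 kept their direction and side of the threshold. Ctnnb1 changed sign with limma-voom (0.0345) and the block (0.0164), and Tcf7l1 with limma-voom (0.0212) and the block (0.0017). Without 1 library 25 of 120 values changed sign, in 16 members. Their ranges were -0.36 to 0.40 for Ctnnb1, -0.29 to 0.30 for Tcf7l1, -0.49 to 0.12 for Fzd3, -0.35 to 0.18 for Fzd7, -0.32 to 0.22 for Fzd9, -0.32 to 0.51 for Wnt7b, -0.22 to 0.47 for Lrp6, -0.20 to 0.15 for Axin1, -0.0151 to 0.53 for Tcf7l2, -0.20 to 1.21 for Rnf43, -0.31 to 0.061 for Znrf3, -0.30 to 0.084 for Lgr6, -0.21 to 0.0391 for Dkk3, -0.81 to 0.0918 for Sfrp4, -1.54 to 0.29 for Sfrp5 and -1.27 to 0.28 for Rspo2. Of the other 14, Wnt5a (0.0096 to 0.49), Tcf7 (0.0529 to 0.76), Fzd4 (0.0791 to 1.06), Fzd1 (0.27 to 1.09), Wnt7a (-0.84 to -0.29) and Lgr5 (-5.45 to -0.42) moved by over 1.5 times. Except where fewer samples were fitted, the cause was not tested. Members below a few CPM are limited by depth, as 10 counts in a library are under 1 CPM.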

Other observations

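Several scarce members differed more between libraries of 1 group than between groups. Among the 43 tested members, 5 (11.6%) had at least a 5-fold ratio between the KO libraries with at least 20 counts in the higher one, against 3.74% of all genes tested, and 4 (9.3%) between the WT libraries, against 8%. These minimums were chosen after the data were seen. Lgr5, a stem cell receptor, had 3 counts in KO replicate 1 and 104 in KO replicate 2, a ratio of 34.0. Wnt10a had 0 counts in KO replicate 1 and WT replicate 2 but 42 in KO replicate 2 and 117 in WT replicate 1, at least 13.7-fold and 32.7-fold apart. Wnt4 had 69 and 3 counts in the WT libraries, Lgr4 15 and 103, and Dkk2 12 and 97 in the KO libraries. The library that was high changed from gene to gene, and no label tells the libraries of a group apart.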
